A study of Arabidopsis thaliana with 4 samples.

Results

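The *MRD1* and *MRU1* loci were examined in RNA-seq of whole rosettes of Col-0, the wild type, and *jmj26*, in which a T-DNA disrupts *JMJ26*. The genes are 8 of the 36632 gene rows of the count tables. They are *MRD1* (AT1G53480), the non-coding gene AT1G07887 on the strand opposite to it, the neighbours AT1G53440, AT1G53450, *HEI10* (AT1G53490) and AT1G07893, and *MRU1* (AT5G35490) with its neighbour AT5G35480. They were chosen because the rows of *MRD1* and AT1G07887 were lost in *jmj26* in these counts. The levels of *MRD1*, AT1G07887, *MRU1* and AT5G35480 are therefore given as a description, with no test. The other 4 genes were chosen by position. Both genotypes were stratified for 2 days at 4°C, grown at 21°C with 16 h of light, and harvested when they had 9 true leaves. There were 2 libraries per genotype, from individually harvested rosettes, and *jmj26* was represented by 1 insertion line. Whether the 2 libraries of a genotype came from separate sowings was not stated, so their spread may be partly technical.

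*JMJ26* encodes a jumonji-domain protein of the histone demethylase family, and the study asked which genes underlie variation in DNA methylation at CHG sites, a plant mark that methyltransferases and repressive histone methylation maintain through each other. *MRD1* and *MRU1* take their names from *mto1*, a mutant of the methionine synthesis pathway that accumulates methionine: *MRD1* stands for *mto1* responding down and *MRU1* for *mto1* responding up. *HEI10* encodes a ring-finger protein needed for meiotic crossovers. AT1G53440 encodes a leucine-rich repeat receptor-like kinase. AT1G07893 lies opposite to *MUM4* (AT1G53500), which encodes a rhamnose synthase needed for seed mucilage. DNA methylation was not analysed here.

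At the *MRD1* locus the annotation places 3 gene rows on top of each other. In the TAIR10.1 annotation, *MRD1* lies on the minus strand at chr1:19963047-19964712 and has 2 transcripts, with coding lengths of 363 and 582 bases. AT1G07887 is a single exon on the plus strand at chr1:19963067-19964105, wholly within the exons of *MRD1*, of whose 1250 exonic bases it covers 83.1%. *HEI10* is also on the plus strand, at chr1:19963267-19966952, and its long first exon, chr1:19963267-19964341, lies ahead of the coding part. That exon shares 839 bases with AT1G07887 on the same strand, 80.8% of the latter. Only 128 bases of *MRD1* (10.2% of its exons) and 0 bases of AT1G07887 are free of the other rows, against 1330 bases of *HEI10* (59.1%). The start of the shorter coding form of *MRD1*, of 363 bases, shows the arrangement, since the same 30 bases belong to all 3 rows. The form of 582 bases starts in a separate exon, chr1:19964605-19964712, which no exon of AT1G07887 or *HEI10* overlaps. They are printed on each strand from RefSeq (TAIR10.1), with the start codon, or its complement, in capitals.

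*MRD1*, shorter coding form, chr1:19963809-19963838, minus strand: ATGactctcgacgacggcagcagatctggt
AT1G07887 and *HEI10*, chr1:19963809-19963838, plus strand: accagatctgctgccgtcgtcgagagtCAT

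*MRU1* has no such overlap. It lies on the plus strand at chr5:13689817-13690548, in 2 exons with a coding length of 153 bases. AT5G35480 points away from it on the minus strand, at chr5:13687847-13689596, with a coding length of 117 bases. The genes are separated by 220 bases, chr5:13689597-13689816, and no counted gene lies opposite to either. The first coding bases of each are shown for comparison with *MRD1*, again with the start codon in capitals.

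*MRU1*, chr5:13690045-13690074, plus strand: ATGgggagggaaaatcaaattgcggtcaat
AT5G35480, chr5:13689525-13689554, minus strand: ATGaaaaaaagtagaggctcatcattcaat

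The upstream stretches also differed in sequence. Because CHG methylation was the trait of the study, the trinucleotides CAG, CTG, CCG and CGG, which make up all CHG sites on both strands, were counted in the 220 bases before each annotated gene start. *MRD1* had 13 of them, and 97.5% of the 27437 protein-coding genes had fewer. The stretch between AT5G35480 and *MRU1*, which serves as the upstream sequence of both, had 2, and 11.9% of genes had fewer. The stretch before *MRD1* ends at the start codon of its longer coding form, and the other *MRD1* transcript begins further into the gene. Exons of *MRU1* and AT5G35480 begin ahead of the coding part, so the stretches are not at like distances from it. The median over all protein-coding genes was 4 (quartiles 3 and 6), and 96.8% of them had at least 1. These are matches of letters in the reference sequence and say nothing about their methylation in these plants. G and C made up 38.2% of the stretch before *MRD1* and 29.5% of the other. The median over protein-coding genes was 31.4% (quartiles 27.3 and 35.5%), and the part of base composition in the numbers of trinucleotides was not tested. Both stretches are printed with these trinucleotides in capitals. The one before *MRD1* lies within an intron of *HEI10*.

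Upstream of *MRD1*, chr1:19964713-19964932, minus strand: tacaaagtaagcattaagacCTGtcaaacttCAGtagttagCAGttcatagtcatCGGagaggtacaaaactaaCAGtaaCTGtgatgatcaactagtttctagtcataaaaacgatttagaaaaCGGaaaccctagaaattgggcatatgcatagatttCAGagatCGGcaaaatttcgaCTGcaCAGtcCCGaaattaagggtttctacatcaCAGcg
Between AT5G35480 and *MRU1*, chr5:13689597-13689816, plus strand: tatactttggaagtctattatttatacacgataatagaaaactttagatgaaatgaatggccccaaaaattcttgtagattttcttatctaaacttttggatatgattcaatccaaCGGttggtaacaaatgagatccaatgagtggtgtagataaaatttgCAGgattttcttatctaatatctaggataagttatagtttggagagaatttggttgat

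The libraries were shallow and unequal. Totals ran from 740909 to 1022041 counts in Col-0 and from 1497105 to 1998601 in *jmj26*, of which 580064 to 1655014 fell on gene rows. Levels are given as CPM, scaled to the sum over gene rows in each library. A count of 3, taken as the floor in each library, equals 3.56 and 5.17 CPM in Col-0. In *jmj26* it equals 1.81 and 2.44 CPM. Intervals and floors cover counting error only. *JMJ26* itself gave 1 and 0 counts in the Col-0 libraries against 0 and 2 in *jmj26*, too few to check the genotypes. All 8 leaf mesophyll markers were tested. They summed to 251 and 397 counts in Col-0 and to 2068 and 1449 in *jmj26*, with a median log2 fold change of 1.22 and 0 calls. Most of them have no gene on the opposite strand, and the 1362 tested rows of that kind had a median of 0.60. The part of these markers in the results below was not tested. The 3 flower markers had 0 counts in every library, and 3 root and 2 seed markers summed to at most 19 and 6 counts. Of 5232 gene rows tested with edgeR's quasi-likelihood test, 3 (0.0573%) passed an adjusted p-value of 0.05 (FDR, Benjamini-Hochberg), and 1 of them was lower in *jmj26* (0.0191%). At an unadjusted p below 0.05, 111 rows (2.12%) were lower and 710 (13.6%) higher in *jmj26*.

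**Figure D1:**
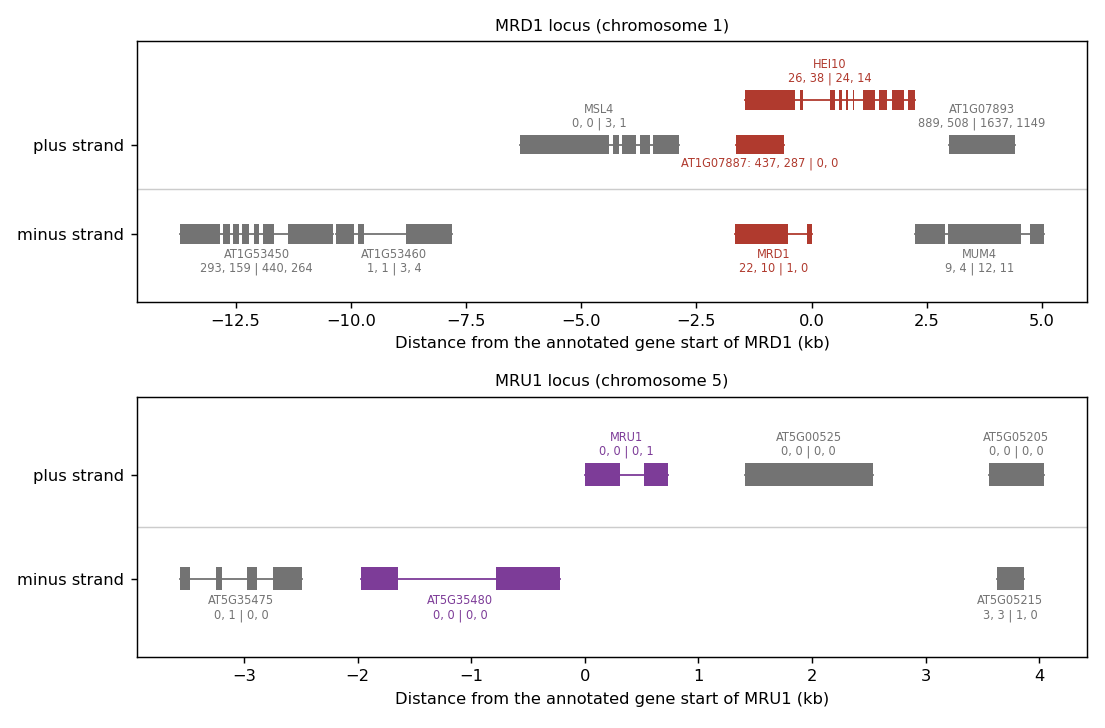
Annotated exons (boxes) around *MRD1* and *MRU1*, by strand and by distance in kb from the annotated start of each gene, with the counts of Col-0 replicates 1 and 2 before the bar and of *jmj26* replicates 1 and 2 after it. The exons of *MRD1*, AT1G07887 and *HEI10* lie over each other, and AT1G07887 went from 437 and 287 counts to 0 and 0, while *MRU1* and AT5G35480 had at most 1 count in any library. *HEI10* is drawn above the other plus-strand genes for space.

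The rows of AT1G07887 and *MRD1* were both lost in *jmj26*, whereas *HEI10*, which also shares exons with *MRD1*, kept counts and is described below. The Col-0 libraries held 437 and 287 counts of AT1G07887, or 517.9 and 494.8 CPM, and the *jmj26* libraries 0 and 0. The Col-0 libraries lay close together, at 506.3 ± 16.3 CPM (SD, n = 2), and neither *jmj26* library held a single count although these were the deeper ones. At the Col-0 level the *jmj26* libraries would have held 838 and 623 counts. Set against the floor of 3 counts per library, AT1G07887 was at least 238-fold lower in *jmj26*. *MRD1* was at 22 and 10 counts in wild type against 1 and 0 in *jmj26*, or 21.7 ± 6.24 against 0.302 ± 0.427 CPM (SD, n = 2 each). The groups did not overlap, and the summed counts of *jmj26* were 1.54% of those of Col-0 after scaling, with a 95% counting interval of 0.0378 to 9.21%. The corresponding fold was 65.0, with an interval of 10.9 to 2647, and it rests on 1 count. Without *jmj26* replicate 2 it was 37.4, and without *jmj26* replicate 1 no count was left to give a fold. Taken as 1 unit, both rows held 756 counts in Col-0 and 1 count in *jmj26*, 0.0651% of the Col-0 level (0.00165 to 0.364%), or 0.113% without *jmj26* replicate 2. In whole rosettes, fewer cells with a transcript and less RNA per cell cannot be told apart. With 1 insertion line, loss of *JMJ26* and any other difference of that line from Col-0 cannot be told apart either.

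Among the 3239 gene rows with over 10 counts in each Col-0 library, AT1G07887 was the only one with at most 3 counts in each *jmj26* library, and among 614 such transposon rows there was none. Ranked by the share of the Col-0 level that remained, AT1G07887 came first and *MRD1* second of the 3084 gene rows with at least 30 counts in Col-0. The third, AT3G05675, kept 4.72%, but its Col-0 libraries disagreed, with 8 and 128 counts. The median row kept 95.2%. The reverse pattern, at most 3 counts in each Col-0 library and over 10 in each *jmj26* library, was found in 271 gene rows. The *jmj26* libraries were the deeper ones, and the part of depth in that count was not tested. These ranks describe the rows from which the genes were chosen and are no test.

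**Figure D2:**
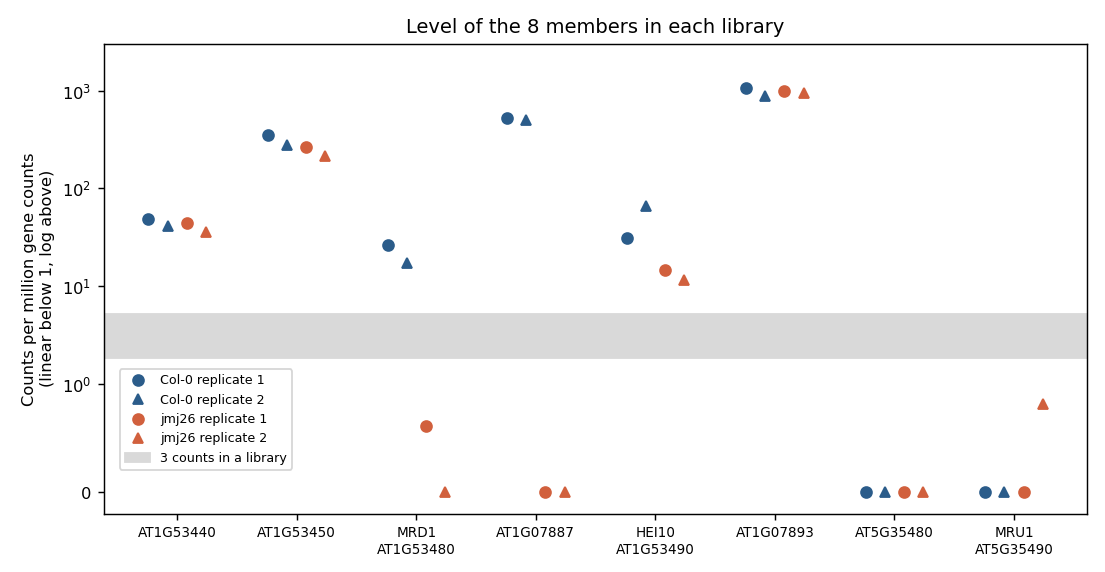
Level of the 8 genes in each library, in CPM of gene counts on an axis that is linear below 1 and logarithmic above. Each point is a library, with Col-0 in blue and *jmj26* in orange, and the grey band spans the level of 3 counts over the 4 libraries. AT1G07887 and *MRD1* drop below the band in both *jmj26* libraries, the 4 neighbours stay above it, and the *MRU1* genes lie below it in both genotypes.

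*HEI10*, which shares its first exon with AT1G07887, was also lower in *jmj26*, but by less and with a larger spread. Wild type gave 26 and 38 counts, and *jmj26* gave 24 and 14. In CPM these were 30.8 and 65.5 against 14.5 and 11.4, so the groups did not overlap but the Col-0 libraries differed more from each other than the lower of them did from *jmj26*. The summed counts of *jmj26* were 29.2% of the Col-0 level (19.0 to 44.3%). The log2 fold change was -1.82 (SE 0.40) and did not pass the threshold of the edgeR fit (adjusted p = 0.109). Without Col-0 replicate 1 it was -2.43 with an adjusted p of 0.00356, and over 16 alternatives its adjusted p ran from 1.64e-05 to 0.318, with a lower value in *jmj26* in each. The reads of the shared 839 bases cannot be assigned to *HEI10* or AT1G07887 from their strand, and how the counting divided them is not given in the sources used here. Counts per exon were not analysed here, so whether the lower *HEI10* count comes from the shared exon or from the rest of the gene was not tested. *HEI10* also shares 922 exonic bases with *MRD1* on the opposite strand, and RNA of *HEI10*, AT1G07887 and *MRD1* cannot be told apart in its count.

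No difference in the genes on either side passed the test. AT1G53440, at lower coordinates than *MRD1* (chr1:19945869-19951562), gave 41 and 24 counts in wild type against 73 and 44 in *jmj26*, or 45.0 ± 5.10 against 39.9 ± 5.89 CPM (SD, n = 2). The genotypes overlapped, and the log2 fold change was -0.18 (SE 0.25, adjusted p = 0.853 in edgeR). AT1G53450 is a minus-strand gene at chr1:19951006-19954325. It gave 293 and 159 counts in wild type against 440 and 264 in *jmj26*. At 310.7 ± 51.7 against 240.3 ± 36.2 CPM, both *jmj26* values lay below both Col-0 values, but the difference did not pass the test (log2 fold change -0.38, SE 0.18, adjusted p = 0.410). These genes overlap each other by 557 bases on opposite strands. AT1G07893, at higher coordinates (chr1:19967683-19969121) on the plus strand, had the highest level of the 8 genes, with 889 and 508 counts in wild type against 1637 and 1149 in *jmj26*. Its mean was 964.6 ± 126 against 961.7 ± 38.8 CPM, a log2 fold change of -0.0078 (SE 0.15, adjusted p = 0.998). As a share of Col-0, the summed counts of *jmj26* were 98.2% for AT1G07893 (92.0 to 104.8%), 88.6% for AT1G53440 (64.9 to 121.9%) and 76.7% for AT1G53450 (68.0 to 86.5%), counting error only.

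**Figure D3:**
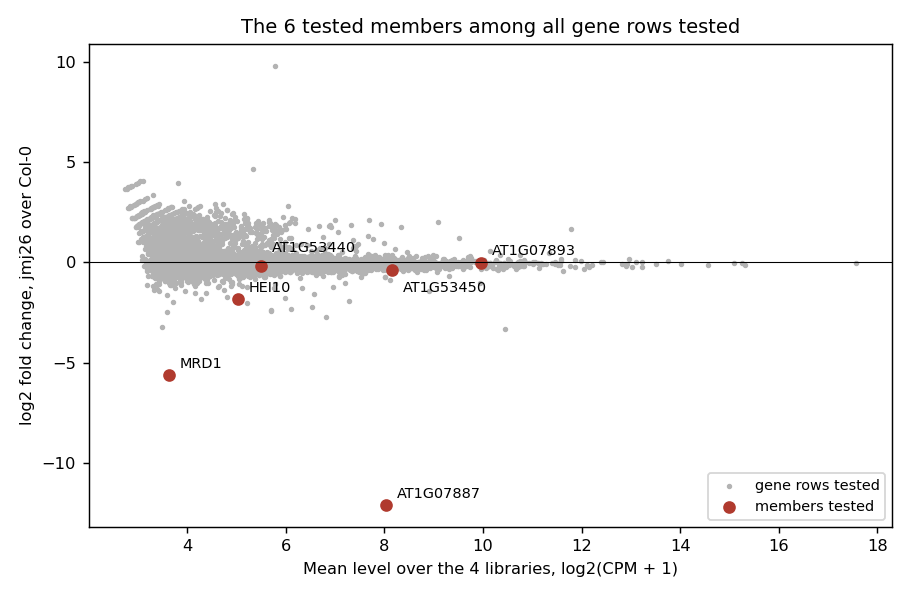
Fitted log2 fold change of *jmj26* over Col-0 against the mean level over the 4 libraries, log2(CPM + 1), for the 5232 gene rows tested (grey) and the 6 genes of the *MRD1* locus (red). AT1G07887 and *MRD1* have the lowest values of all rows, *HEI10* is at -1.82, and the other 3 lie between -0.38 and -0.0078. The fitted value of AT1G07887 is no estimate of size, since *jmj26* had 0 counts.

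Of the 8 genes, 6 passed the filter on low counts and 1 of these, AT1G07887, passed the threshold, against the 0.0191% of all tested rows that were lower. That gene was chosen on the same contrast, so nothing is read from the count. In 4 of the 6 both *jmj26* libraries lay below both Col-0 libraries in CPM, as did 18.3% of all tested rows. These 4 were AT1G07887, *MRD1*, *HEI10* and AT1G53450, of which the first 3 share bases. For any single value, 2 libraries against 2 allow no exact two-sided permutation p below 0.333.

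Per kb of exon in Col-0, AT1G07893 was highest at 670.3 ± 87.3 CPM per kb, followed by AT1G07887 at 487.3 ± 15.7 and AT1G53450 at 119.6 ± 19.9 (SD, n = 2). *HEI10*, *MRD1* and AT1G53440 came last, at 21.4 ± 10.9, 17.3 ± 4.995 and 14.1 ± 1.59 CPM per kb, and did not differ beyond their spread. In *jmj26* the order of the genes that were still detected was the same at the top, with AT1G07893 at 668.3 ± 27.0 and AT1G53450 at 92.5 ± 13.9 CPM per kb. Below them *HEI10*, at 5.75 ± 0.979, stood under AT1G53440, at 12.5 ± 1.84.

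*MRU1* offered no comparison of this kind. It had no count in wild type and 0 and 1 in *jmj26*, and AT5G35480 had 0 counts in all 4 libraries. Both genotypes were at or under the floor, so no fold is given and a loss in *jmj26* was not detectable in these counts. Neither gene has a gene on the opposite strand, and rows with one held most of the gene counts, as given below. Whether depth or the strand of the counting left these rows so low was not tested. In Col-0, 3 counts equal 3.56 and 5.17 CPM for either row, under the level of the *MRD1* row in the same libraries. This bounds the counts of the rows and not the RNA of the genes, since the strand setting of the counting is not known. Such low counts were common. Of all 36632 gene rows, 65.8% had at most 3 counts in every library, and of the 20757 protein-coding rows with no gene on the opposite strand, 69.4%. Of these 20757 rows only 1316 had enough counts to be tested, against 5232 of all 36632. In Col-0 the rows of *MRD1* and AT1G07887 summed to 756 counts, and *MRU1* and AT5G35480 to 0.

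The counts of the neighbourhoods differed in the same way. Within 20 kb of *MRD1* there were 21 gene rows, of which 12 had more than 3 counts in some library, 6 were tested and 1 was called lower. The row called was AT1G07887, which was chosen on this contrast, so nothing is read from it. Of all tested rows, 0.0191% were called lower. Besides the genes above, *MUM4* had 9 and 4 counts in wild type against 12 and 11 in *jmj26*, and AT1G53541 had 2 and 3 against 8 and 28. The *jmj26* libraries of AT1G53541 differed widely from each other, and neither gene passed the filter. The remaining genes of this window with over 3 counts, AT1G53460, the U6 gene AT1G07883, *MPK18* (AT1G53510) and AT1G53560, reached 4 counts at most. Within 20 kb of *MRU1* there were 15 gene rows, of which 7 had 0 counts throughout, none was tested and the highest count was 7. That count belonged to AT5G35530, a ribosomal protein gene, with 1 and 2 counts in wild type against 7 and 3 in *jmj26*. *MIS12* (AT5G35520), which encodes a kinetochore protein, had 0 and 0 against 1 and 5. The 20 kb around *MRU1* held 4 and 7 counts over all genes in wild type against 13 and 11 in *jmj26*. The 20 kb around *MRD1* held 1721 and 1037 against 2213 and 1524. A gene on the opposite strand was annotated for 13 of the 21 rows near *MRD1* and for 4 of the 15 near *MRU1*. The part of this in the difference in counts was not tested.

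The counts at *MRD1* fell almost wholly on the plus strand row. Libraries were made with a kit that keeps the strand, and the strand setting of the counting is not given in the sources used here. In Col-0, the non-coding row held 95.2% (95% Wilson interval 92.8 to 96.8%) and 96.6% (93.9 to 98.2%) of the counts of the pair of AT1G07887 and *MRD1*. At the neighbouring pair of AT1G07893 and *MUM4* the non-coding row held 99.0 to 99.3% in all 4 libraries. Across all pairs of a protein-coding and a non-coding gene on opposite strands with at least 20 counts, 909 to 1128 per library, the median share in the non-coding row was 73.2 to 81.1%. The shares spread widely, with lower quartiles of 27.5 and 29.8% and upper quartiles of 96.0 and 97.0% in Col-0. Counts on the non-coding row of such pairs were thus usual at these loci and across the genome. The pair of *LHCB1.5* (AT2G34420), which encodes a chlorophyll-binding protein of leaves, and the non-coding AT2G08665 is an example from the leaf markers, with 23 and 157599 counts in Col-0 replicate 1. Rows with a gene on the opposite strand were 24.6% of all gene rows and held 92.3 to 95.6% of the gene counts per library. Whether these counts are RNA of the strand opposite to each row was not tested. Whether the AT1G07887 counts are RNA of that gene or of *MRD1* on the other strand cannot be told apart here, and the same holds for AT1G07893 and *MUM4*. The sum of both rows, given above, does not depend on that assignment. It leaves out *HEI10*, so it still depends on how the counting divided reads of the bases shared with *HEI10*.

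**Figure D4:**
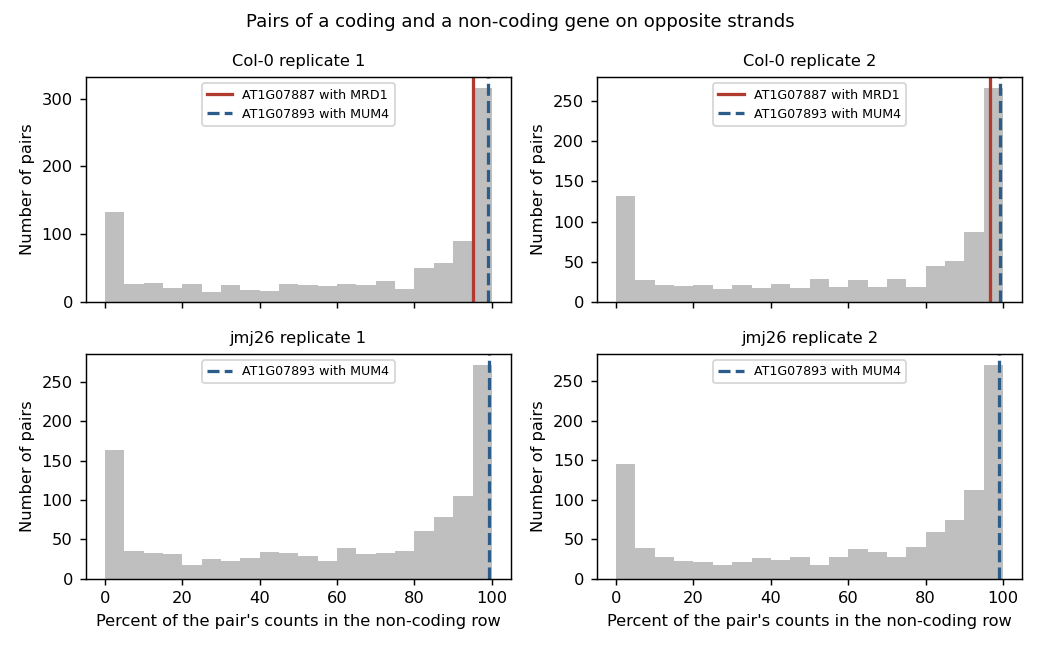
Distribution, in each library, of the percent of counts that fell on the non-coding row, over pairs of a coding and a non-coding gene on opposite strands with at least 20 counts. The pair of AT1G07887 and *MRD1* (solid line, Col-0 only, since *jmj26* had at most 1 count) lies at 95.2 and 96.6%, and the pair of AT1G07893 and *MUM4* (dashed line) at 99.0 to 99.3%, both in the tallest group of bars.

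Sharing of reads with other parts of the genome was limited. Of the 50-base windows in the exons, 0.955% of *MRD1*, 1.11% of AT1G07887 and 0.0561% of *HEI10* occurred more than once in the genome, and 0 of *MRU1* did. The shares were 2.42% in AT5G35480 and 2.40% in AT1G53440, and 0 in AT1G53450 and AT1G07893.

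Genes of the pathway after which *MRD1* and *MRU1* are named gave no call. Of 18 genes of methionine synthesis and turnover, 8 were tested and 0 passed the threshold in either direction, with 4 at an unadjusted p below 0.05, all of them higher in *jmj26*, as were 13.6% of all tested rows and 37.9% of those without a gene on the opposite strand. *SAHH2* (AT3G23810), which recycles S-adenosylhomocysteine, had a log2 fold change of 2.17 (SE 0.50, adjusted p = 0.109), and *MTO3* (AT3G17390), an S-adenosylmethionine synthetase, one of 1.18 (SE 0.35, adjusted p = 0.146). *MTO3* had 14 and 22 counts in Col-0, whereas the non-coding AT3G03475 on the opposite strand had 3505 and 2097 and a log2 fold change of 0.05, and the strand of these counts is as uncertain as at *MRD1*. *MTO1* (AT3G01120), the cystathionine gamma-synthase mutated in *mto1*, had 2 and 4 counts in Col-0 and a log2 fold change of 1.17 (SE 0.58, adjusted p = 0.418). The median over the 8 was 1.17, against 0.01 over all tested rows, 0.60 over the 1362 tested rows without a gene on the opposite strand and -0.03 over the 3870 with one. The part of this shift in the list was not tested. The genes on the strand opposite to these, 4 of them tested, had a median of -0.26 and 0 calls. Of 7 genes of the crossover pathway of *HEI10*, 2 were tested, *HEI10* itself and *SHOC1* (AT5G52290), which had a log2 fold change of 0.34 (SE 0.28, adjusted p = 0.686). Of 15 DNA methylation genes, including *JMJ26*, 0 were tested.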

How the data were processed

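RNA-seq libraries of Col-0 and *jmj26* rosettes were compared, with genotypes and replicate numbers taken from the sample labels. The labels describe poly(A) selection and a directional kit, but give the molecule as genomic DNA. The authors trimmed reads with fastp, aligned them with STAR (version 2.7) to Araport11 with multiple hits allowed, and deposited raw counts per gene and transposon copy from TEcount. Their featureCounts table was not used here. All 36632 gene identifiers were found in TAIR10.1, which supplied coordinates and sequences.

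Low gene rows were removed by filterByExpr, libraries were scaled by TMM, and the quasi-likelihood test (glmQLFTest, edgeR 4.0.16, R 4.3.3, legacy = TRUE) was applied, with Benjamini-Hochberg adjustment over 5232 rows. The biological coefficient of variation was 16.6%. On simulated counts for this comparison, 81.5% of 200 rows changed by a log2 fold change of 2 were recovered, with 5 false calls among 5232 rows. All simulated rows had this same coefficient of variation, so the share recovered need not hold for rows that varied more. Ratios of summed counts carry exact conditional binomial intervals. Alternatives were other scalings, filters, edgeR settings, DESeq2 1.42.0, transposon rows added, a replicate block and each library left out. A crossed block was added after seeing the data. Total counts per library were 740909 to 1998601.

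The genes, lists and tests were chosen with earlier results of these data known. The genes named are the 8 genes, *JMJ26*, genes within 20 kb with over 3 counts in a library, tested genes of the lists, rows with at most 3 counts in each library of one genotype and over 10 in each of the other, and the opposite-strand partners of these. AT3G05675 was named after its values were seen.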

Additional observations from a re-analysis of the deposited data

How the results depend on the processing

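AT1G07887 and *MRD1*, described with no test, had lower values in *jmj26* in all 15 and 14 alternatives that included them. The fitted log2 fold change of *MRD1* ran from -7.33 to -5.01 without a library. Of 5232 rows tested, 3 were called, 1 of them lower. Without a filter, 592 of 22317 rows were called, 61 of them lower. A minimum of 10 counts in each library, which removes AT1G07887 and *MRD1*, gave 0 calls among 3365 rows. Among 5232 rows, 19 were called with robust = TRUE and 13 with DESeq2, with 3 lower in each. With transposon rows added, 1 of 5232 gene rows was called. With legacy = FALSE, 2 rows were lower. Leaving out 1 library gave 1 to 445 calls, 1 to 25 of them lower, and the extremes came without Col-0 replicate 2 (445) and Col-0 replicate 1 (25). Of the 8 genes, and of those within 20 kb, 3 passed without a filter, 0 with at least 10 counts, 2 with robust = TRUE or legacy = FALSE, and 1 to 2 without a library. The counts among the 8 and within 20 kb include genes chosen on this contrast and support nothing about them. List genes gave 5 calls without a filter and 0 to 3 without a library. The log2 fold change of *HEI10* passed at -1.92 without a filter, and ran from -2.43 to -1.34 without a library. AT1G07893 changed sign around 0, at 0.023 with upper quartile scaling, 0.018 with library totals, 0.048 with at least 10 counts, 0.00068 with transposon rows, 0.015 with overlapping rows only, and from -0.24 to 0.021 without a library. The median share of opposite-strand pairs in the non-coding row rose from 77.6 to 85.0% with at least 100 counts per pair. Where a library is left out, the lone library of its genotype is assumed to vary like the other genotype. Rows without an opposite-strand overlap include none of the tested 6 genes. The cause of these changes was not tested, beyond the rows removed by a filter.

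With the replicate block there were 64 calls, 5 of them lower, and 2 of the 8 genes and of the genes within 20 kb passed. What libraries of the same number share is not stated, and their deviations were not positively correlated (r = -0.16 across 5232 genes, which are not independent replicates). A crossed block, added after seeing the data, gave 152 calls, 11 lower, 3 of the 8 genes and 3 of those within 20 kb (*HEI10* at -1.87), and 1 list gene.

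With a floor of 1.81 to 5.17 CPM, nothing can be said of *MRU1*, AT5G35480 or *JMJ26*, and the *MRD1* row rests on 32 counts in Col-0. Rows without an opposite-strand gene carry few counts, so most of the lists could not be tested.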
